A study of Mus musculus with 6 samples.

Results

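The genes described here encode 44 proteins of the mouse lysosome other than the cathepsins, namely soluble hydrolases, membrane proteins, subunits of the proton pump, and the transcription factors Tfeb and Tfe3. They were listed by gene symbol and not by a threshold on a measured value, but with earlier results of these data known. All 44 were found among the 16516 genes of the deposited table, and all 44 were among the 13151 genes that passed the filter on low counts. RNA-seq was performed on CD11b+ cells that were isolated with magnetic beads from the cortex of male C57BL6/J mice aged 8 to 10 weeks. NS mice had received 4 daily intraperitoneal injections of normal saline, and 4LPS mice had received 4 daily injections of lipopolysaccharide (LPS, from Escherichia coli 055:B5) at 500 µg/kg. Cells were taken at day 7 after the first injection, 3 samples per group were sequenced, and each sample held the cells of 2 mice, so the spread given below is a spread between pools. The comparison addressed how repeated peripheral LPS changed the expression of lysosomal genes in these cells.

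Lysosomes are acidic organelles in which engulfed or worn-out material is broken down. Hydrolases reach them mostly through a mannose 6-phosphate tag that is added in the Golgi, the V-ATPase pumps protons into their lumen so that these enzymes can work, and membrane proteins line the organelle and carry the products out. Microglia, the resident phagocytes of the brain, rely on lysosomes to digest debris and synaptic material, and inherited loss of many of these enzymes causes storage disease with brain involvement. The basic helix-loop-helix factors Tfeb and Tfe3 bind a short palindrome, CACGTG, near the start of many lysosomal genes and increase their transcription when they move into the nucleus.

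The cells carried the label microglia, and 10 microglial markers summed to 35648 to 37323 CPM in the NS samples and 34331 to 34464 CPM in the 4LPS samples, with 0 of 10 higher and 2 of 10 (P2ry12 and Slc2a5) lower. In 8 of the 10 all 3 samples of 4LPS lay below all 3 of NS, against 17.5% of all genes tested. In the other 2 they lay above, against 19.9%. The median log2 fold change of the 10 was -0.18. CPM here are counts scaled to a common library total after TMM normalization, and a change was called at an adjusted p under 0.05 from edgeR's quasi-likelihood test. All 9 markers of natural killer cells rose, with a sum of 5.34 to 9.98 CPM in NS and 103 to 116 CPM in 4LPS. All 3 tested T cell markers and 5 of 7 dendritic cell markers rose as well, with sums of at most 17.9 and 40.6 CPM. Of 8 neutrophil markers, which summed to 868 to 1321 CPM in NS and 1272 to 1821 CPM in 4LPS, only Csf3r passed. Csf3r had 749, 707 and 697 CPM in NS and 846, 863 and 923 CPM in 4LPS, a large part of these sums. Which cells it came from was not tested. The 7 others had log2 fold changes of 0.84 to 1.42 with overlapping groups, and they summed to 158, 161 and 623 CPM in NS replicates 1, 2 and 3 and to 974.5, 409 and 629 CPM in 4LPS. Of 7 markers of border-associated macrophages 1 rose (Ms4a7), with sums of 234 to 331 CPM in NS and 189 to 430 CPM in 4LPS. None of 7 monocyte markers passed (186 to 371 CPM in NS and 193 to 313 CPM in 4LPS), nor did the 1 tested B cell marker. In the other direction, 2 of 6 astrocyte and 2 of 5 endothelial markers fell, against 6.43% of all genes tested. No marker of oligodendrocytes, mural cells, choroid plexus or neurons passed. Even so, each endothelial, oligodendrocyte, mural and choroid plexus marker had a log2 fold change below 0, with medians of -1.01, -0.58, -0.72 and -2.16. The choroid plexus markers summed to 6560 and 5707 CPM in NS replicates 1 and 2 but to 652 CPM in NS replicate 3, and the 4LPS samples were spread at 2210, 1.84 and 529.9 CPM. NS replicate 3 thus stood apart from its group in the markers of choroid plexus and of neutrophils, and not in these alone. Endothelial markers summed to 339, 266 and 548 CPM in NS replicates 1, 2 and 3, and mural markers to 177, 133 and 292 CPM. For oligodendrocytes the sums were 292, 265 and 459 CPM, and for monocytes 230, 186 and 371 CPM. Without NS replicate 3, 22 lysosomal genes were higher, 20 of them shared with the fit of all samples. Arsa and Tpp1 then lost the call, and Lamp2 and Manba gained it. Over all genes, 1308 increases and 845 decreases became 1629 and 1215. None of these markers was at 0 throughout a group. The part that these cells had in the lysosomal values was not tested, and in bulk samples fewer cells of a type cannot be told apart from less RNA per cell. Total counts per sample were 15158342 to 15746606, which differ by a factor of 1.039.

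Of the 44 lysosomal genes, 22 were higher in 4LPS, 0 were lower and 22 did not pass the test, while 9.95% of all tested genes were higher and 6.43% were lower. The changes were small. Acp5, which was barely expressed, rose 3.08-fold, and the 21 other increases lay between 1.13-fold and 1.58-fold. The median log2 fold change of the 44 genes was 0.23, against -0.02 over all genes tested. At an unadjusted p under 0.05 the count was 31. The share of all genes at that threshold was not counted, so this number has no background to be read against. In 31 genes all 3 samples of 4LPS lay above all 3 samples of NS, which was so for 19.9% of all genes tested, and in 0 genes they lay below, which was so for 17.5%. In the NS samples the 44 genes held 2.77%, 2.87% and 2.73% of the total count, against 3.08%, 3.07% and 3.19% in the 4LPS samples. Their summed CPM came to 26982 ± 800.1 in NS and 32213 ± 1033 in 4LPS (SD over 3 samples each).

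The count of increases varied with the samples kept and with scaling, and the absence of decreases did not. A fit that leaves out a sample has fewer samples in a group. A lost call then need not mean that the increase rested on that sample. Over all genes such fits gave 781 to 1629 increases, against 1308 with all samples. Arsa and Tpp1 lost the call in all 6 of them, with log2 fold changes of 0.17 to 0.21 and 0.18 to 0.26. Leaving out 4LPS replicate 3 left 14 increases, leaving out another sample left 15 to 22, and 0 lysosomal genes were lower under any of the 19 alternatives. Increases made up 60.8% of the calls over all genes, 34.6% without a composition factor, 35.6% with FPKM values and 73.3% with a correction for gene length, with 15, 17 and 26 lysosomal genes higher in those 3 fits. Scarb2, Galns, Arsa, Asah1, Tpp1, Ppt1 and Acp5 lost the call without a composition factor (adjusted p = 0.0516 to 0.219). The median of the lysosomal genes stood 0.24 above that of all genes on the log2 scale, and 0.19 to 0.28 above it over the alternatives.

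**Figure D1:**
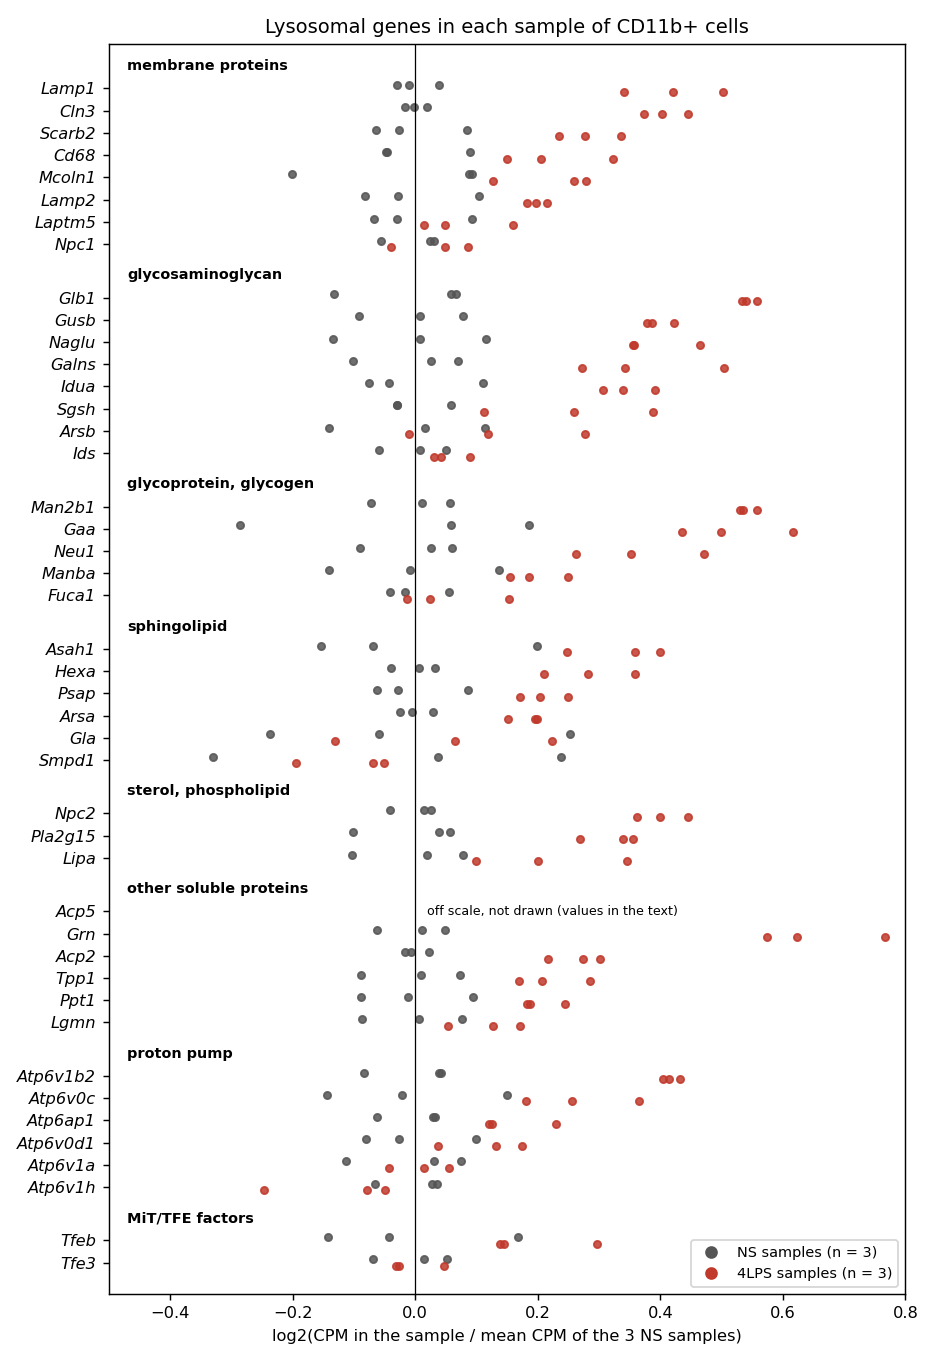
Level of each lysosomal gene in each of the 6 samples, as log2 of its CPM over the mean CPM of the 3 NS samples, grouped by role and ordered within a role by the change; each point is 1 sample. All 3 points of 4LPS lie to the right of all 3 points of NS in 30 of the genes drawn, and Acp5 is off scale.

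Levels per transcript length, given as FPKM (fragments scaled for transcript length and library total), spanned more than 3 orders of magnitude and kept nearly the same order in both groups. The median of the 44 genes was 75.8 FPKM in NS, 20 genes were above 100 FPKM and 3 were under 10 FPKM. The 4 highest were Lgmn (2673 ± 124 FPKM), Psap (2124 ± 109 FPKM), Laptm5 (1791 ± 98.9 FPKM) and Grn (1004 ± 47.3 FPKM, SD, n = 3 NS samples). Among all genes, 6 of the 44 were within the 100 highest. Lgmn and Psap lay apart by more than their spread, as did Psap and Laptm5. Acp5 (0.60 ± 0.34 FPKM), Gla (3.08 ± 0.57 FPKM) and Galns (8.72 ± 0.60 FPKM) were the lowest. Across the 44 genes the order of FPKM in NS and in 4LPS had a Spearman's rho of 0.990, a description over genes that share libraries and lengths. Replicates were close, with a median coefficient of variation of 5.74% in NS and 4.40% in 4LPS on the CPM scale.

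**Figure D2:**
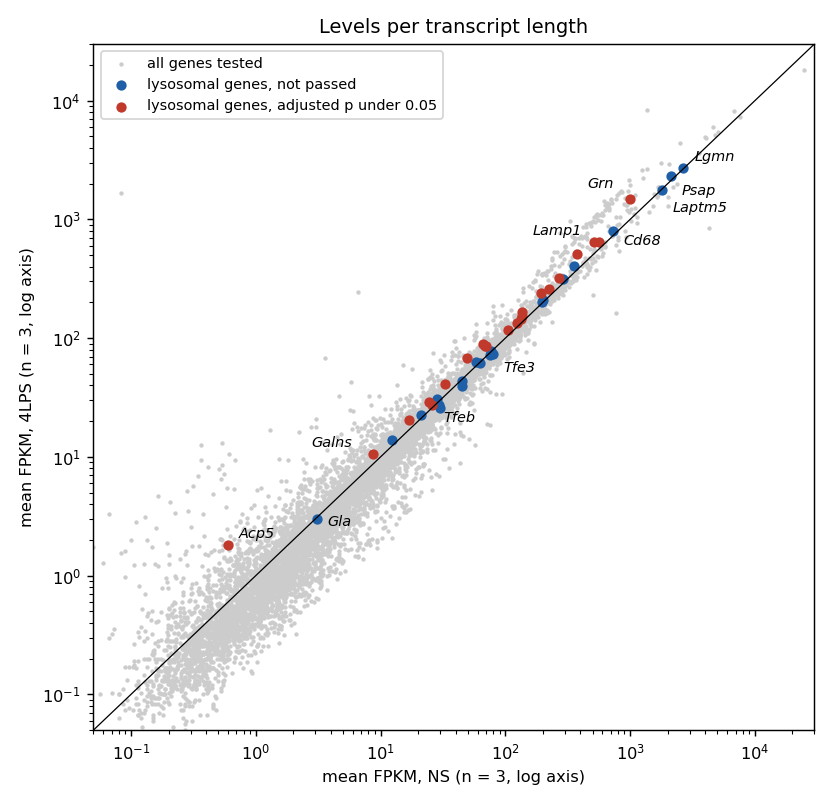
Mean FPKM in 4LPS against mean FPKM in NS (both axes logarithmic, n = 3 samples per group) for all genes tested (grey) and for the lysosomal genes (red with an adjusted p under 0.05, blue otherwise); the line marks equal levels. Lysosomal genes run from Acp5 at 0.60 FPKM to Lgmn at 2673 FPKM in NS. They lie close to the line except for Acp5, which is at 1.80 FPKM in 4LPS.

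The promoter stretches below show where the palindrome bound by Tfeb and Tfe3 stands in 6 lysosomal genes, chosen because they hold it in several copies or in its longer form. Promoter windows of 250 bases before to 50 bases after a start were taken from RefSeq (build GRCm38.p6), which held 49 windows for 39 of the 44 genes and none for Npc1, Galns, Asah1, Atp6v1b2 and Atp6v1h. CACGTG, which reads the same on both strands, was present in 12 of the 49 windows (24.5%), in 7.15% of all 32851 windows and in 9.58% of the 13543 windows of genes tested. Its extended form TCACGTGA, which contains CACGTG, was present in 5 of the 49 windows (10.2%), in 0.974% of all windows and in 1.79% of those of genes tested. By outcome, CACGTG was present in 6 of 22 windows of genes that rose and in 6 of 27 windows of genes that did not pass, and TCACGTGA in 1 and 4 of them. In other lysosomal genes, cathepsins included, 25 of 105 windows (23.8%) held CACGTG. A match describes the letters in a window and is not a bound site. The stretches come from chr8:13159085-13159160 (Lamp1, plus strand), chr7:126583337-126583400 (Cln3, minus strand, at 1 of 2 starts), chr8:3500433-3500494 (Mcoln1, plus strand), chr8:105566061-105566082 (Atp6v0d1, minus strand), chr16:44139370-44139405 (Atp6v1a, minus strand) and chrX:134601179-134601247 (Gla, minus strand). They are written 5′ to 3′ along the gene, and capitals mark CACGTG.
Lamp1: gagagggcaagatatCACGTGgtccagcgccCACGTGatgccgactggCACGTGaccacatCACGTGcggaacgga
Cln3: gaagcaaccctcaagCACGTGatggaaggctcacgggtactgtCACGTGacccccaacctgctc
Mcoln1: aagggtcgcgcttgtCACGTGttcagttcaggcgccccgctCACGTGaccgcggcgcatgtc
Atp6v0d1: aggccctactgcggtCACGTGa
Atp6v1a: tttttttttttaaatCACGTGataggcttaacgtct
Gla: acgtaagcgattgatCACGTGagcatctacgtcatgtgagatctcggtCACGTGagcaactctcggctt
Lamp1 held 4 copies from 61 to 15 bases before its start, and Lamp1 and Cln3 rose, whereas Mcoln1, Atp6v0d1, Atp6v1a and Gla did not pass the test.

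Of the 8 membrane proteins 3 rose (Lamp1, Cln3 and Scarb2) and 0 fell, with a median log2 fold change of 0.23. Counts by role, here and below, stand beside 9.95% of all genes tested that were higher and 6.43% that were lower. Differences between the roles were not tested. Lamp1 (GRCm39 chr8:13209121-13227360, plus strand), an abundant glycoprotein that lines the lysosomal membrane, was at 946, 959.5 and 992 CPM in NS and at 1224, 1292 and 1369 CPM in 4LPS. The groups did not overlap, and the log2 fold change was 0.42 (standard error, SE, 0.06, adjusted p = 0.00361). Its partner Lamp2 (GRCm39 chrX:37488520-37545340, minus strand), which also serves chaperone-mediated autophagy, was at 708.9, 682.4 and 776.8 CPM in NS and at 820.4, 838.5 and 828.6 CPM in 4LPS. All 4LPS samples were again above all NS samples, but the log2 fold change of 0.20 (SE 0.06) missed the threshold with an adjusted p of 0.0623, and passed it without NS replicate 3 (adjusted p = 0.0169). Cd68, the macrophage sialomucin used to stain phagocytic microglia, was at 655.8, 721.4 and 657.1 CPM in NS and at 781.9, 752.5 and 847.7 CPM in 4LPS. These groups did not overlap either, with a log2 fold change of 0.23 (SE 0.07, adjusted p = 0.0539), and the call changed to higher with DESeq2 (adjusted p = 0.00314) and with limma-voom (adjusted p = 0.0467).

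Cln3, a membrane protein lost in juvenile neuronal ceroid lipofuscinosis, had 81.4, 79.5 and 80.3 CPM in NS and 109, 106 and 104 CPM in 4LPS. With little spread in either group, it rose by a log2 fold change of 0.41 (SE 0.05, adjusted p = 0.00114). Scarb2, a receptor that brings a hydrolase to the lysosome without the mannose 6-phosphate tag, had 574, 559 and 620.0 CPM in NS and 687, 738 and 708 CPM in 4LPS. Its groups were separate and its log2 fold change was 0.28 (SE 0.06, adjusted p = 0.016), a call that was lost without NS replicate 1 (adjusted p = 0.0626) or NS replicate 2 (adjusted p = 0.0557). Laptm5, a membrane protein of blood cells that takes receptors to the lysosome and the highest of these 8 in FPKM, had 3624, 3945 and 3532 CPM in NS and 3738, 3826.5 and 4135 CPM in 4LPS. The groups overlapped, and its log2 fold change of 0.08 (adjusted p = 0.518) changed sign without a composition factor and with FPKM values. Mcoln1, a calcium channel of the lysosomal membrane and the lowest of the 8 in FPKM, had 50.2, 49.98 and 40.9 CPM in NS and 51.3, 56.3 and 57.0 CPM in 4LPS. The groups were just apart, with a log2 fold change of 0.22 (SE 0.09, adjusted p = 0.132). Npc1, which exports cholesterol through the membrane, overlapped between groups at a log2 fold change of 0.03 (adjusted p = 0.692) that turned below 0 without a composition factor and with FPKM values.

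Among the 8 enzymes that degrade glycosaminoglycans, the sulfated sugar chains of the matrix, 5 rose and 0 fell, with a median log2 fold change of 0.36. Glb1, the acid beta-galactosidase (GRCm39 chr9:114230144-114303966, plus strand), had 106, 105 and 92.2 CPM in NS and 146, 149 and 147 CPM in 4LPS. It was well separated between groups, with a log2 fold change of 0.54 (SE 0.06, adjusted p = 0.00114). Gusb, the beta-glucuronidase, had 281, 301 and 316 CPM in NS and 391, 389 and 401 CPM in 4LPS. It rose by a log2 fold change of 0.40 (SE 0.05, adjusted p = 0.00256). Naglu, which removes N-acetylglucosamine from heparan sulfate, had 148, 159.8 and 134 CPM in NS and 189, 189 and 204 CPM in 4LPS. Its log2 fold change was 0.39 (SE 0.07, adjusted p = 0.00882). Idua, the iduronidase, had 107, 95.9 and 93.7 CPM in NS and 125, 122 and 129.5 CPM in 4LPS. Its log2 fold change was 0.35 (SE 0.06, adjusted p = 0.00879), with no overlap of the groups in either enzyme.

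Galns, a sulfatase of keratan sulfate and the lowest of these 8 enzymes in FPKM, had 20.3, 18.0 and 19.7 CPM in NS and 24.6, 23.4 and 27.5 CPM in 4LPS. It rose by a log2 fold change of 0.38 (SE 0.10, adjusted p = 0.0347), and this call was lost without NS replicate 1 or 2 or without 4LPS replicate 1 or 3 (adjusted p = 0.0683, 0.0939, 0.0688 and 0.0919). Arsb, a sulfatase of dermatan sulfate and the highest of the 8 in FPKM, had 636, 709 and 758.5 CPM in NS and 849.8, 762 and 696 CPM in 4LPS. Its groups overlapped, with a log2 fold change of 0.13 (SE 0.09, adjusted p = 0.337). Sgsh, the sulfamidase of heparan sulfate, was higher in each 4LPS sample than in any NS sample but did not pass, at a log2 fold change of 0.26 (adjusted p = 0.0605), and passed without 4LPS replicate 2 (adjusted p = 0.0371). Ids, the iduronate sulfatase, overlapped at a log2 fold change of 0.05 (adjusted p = 0.437), which turned below 0 without a composition factor and with FPKM values.

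Of 5 enzymes that trim glycoproteins and glycogen, 3 rose and 0 fell, and the summed level of these 5 rose 1.41-fold, most of it from Man2b1. Man2b1, the lysosomal alpha-mannosidase (GRCm39 chr8:85809885-85825361, plus strand), had 1393, 1523 and 1476 CPM in NS and 2120.4, 2114 and 2156 CPM in 4LPS. The groups stood far apart, with a log2 fold change of 0.54 (SE 0.06, adjusted p = 0.00099). Gaa, which frees glucose from glycogen, had 237, 217 and 171 CPM in NS and 294, 281 and 319 CPM in 4LPS. Its log2 fold change was 0.52 with a wider error (SE 0.11, adjusted p = 0.0196), and the call was lost without 4LPS replicate 1 (adjusted p = 0.0524) or 4LPS replicate 3 (adjusted p = 0.0772). Neu1, the sialidase and the lowest of the 5 in FPKM, had 59.6, 61.1 and 55.0 CPM in NS and 74.7, 70.2 and 81.2 CPM in 4LPS. It rose by a log2 fold change of 0.36 (SE 0.07, adjusted p = 0.0131). Manba, the beta-mannosidase, was separate between groups but did not pass (log2 fold change 0.20, adjusted p = 0.114), except without NS replicate 3 (adjusted p = 0.0235). Fuca1, the fucosidase, overlapped (log2 fold change 0.06, adjusted p = 0.523) and changed sign without a composition factor and with FPKM values.

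Among 6 enzymes and activators of sphingolipid breakdown 3 rose and 0 fell, and the most abundant of them did not pass. Psap, the precursor of the saposins that lift lipids out of membranes for the enzymes, had 4769, 5158 and 4654 CPM in NS and 5596, 5471 and 5777 CPM in 4LPS. Its groups were apart, but the log2 fold change of 0.21 (SE 0.07) had an adjusted p of 0.0908, and it passed with DESeq2 (adjusted p = 0.00103) and limma-voom (adjusted p = 0.0327). Hexa, the alpha chain of beta-hexosaminidase, had 935, 952 and 905 CPM in NS and 1077, 1132 and 1194 CPM in 4LPS. It rose by a log2 fold change of 0.29 (SE 0.06, adjusted p = 0.0165), a call lost without NS replicate 1 and also without 4LPS replicate 2 or 3 (adjusted p = 0.0556, 0.0515 and 0.0546). Asah1, the acid ceramidase, had 464, 492 and 592 CPM in NS and 613, 661.5 and 681 CPM in 4LPS. Its highest NS sample came close to its lowest 4LPS sample, and the log2 fold change was 0.34 (SE 0.09, adjusted p = 0.0468). This call held only in the fit without NS replicate 3 among the 6 that left out a sample, with an adjusted p of up to 0.138 in the others.

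Arsa, the sulfatase of myelin sulfatide, had 80.1, 82.0 and 79.0 CPM in NS and 92.2, 89.2 and 92.0 CPM in 4LPS. The groups were close but separate, with a log2 fold change of 0.18 (SE 0.05, adjusted p = 0.0359), and the call was lost when any of the 6 samples was left out (adjusted p = 0.0509 to 0.107). Gla, the alpha-galactosidase and the lowest of the 6 in FPKM, had 9.76, 7.86 and 6.94 CPM in NS and 8.57, 7.48 and 9.56 CPM in 4LPS. It overlapped, and its log2 fold change of 0.06 (SE 0.17, adjusted p = 0.83) changed sign without a composition factor, with FPKM values, and without NS replicate 3 or 4LPS replicate 3. Smpd1, the acid sphingomyelinase, was 1 of 3 lysosomal genes with a log2 fold change under 0 (-0.10, SE 0.13, adjusted p = 0.613), with overlapping groups, and its sign changed without NS replicate 1.

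Of the 3 genes of sterol and phospholipid handling 2 rose and 0 fell, with a median log2 fold change of 0.32. Npc2, which hands cholesterol to Npc1, had 539, 561 and 565 CPM in NS and 732, 713 and 756 CPM in 4LPS. Its groups were widely separated, with a log2 fold change of 0.40 (SE 0.05, adjusted p = 0.00164). Pla2g15, a phospholipase and the highest of these 3 in FPKM, had 497, 554 and 548 CPM in NS and 642, 674 and 682 CPM in 4LPS. It rose by a log2 fold change of 0.32 (SE 0.06, adjusted p = 0.0102). Lipa, the acid lipase that splits cholesteryl esters and the lowest of the 3, had 153, 141 and 159.7 CPM in NS and 162, 174 and 192 CPM in 4LPS. The groups were just apart, and its log2 fold change of 0.22 (SE 0.07) did not pass (adjusted p = 0.0841).

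Of 6 other soluble proteins 5 rose and 0 fell, among them Grn, which had the largest log2 fold change of the 44 genes after Acp5. Grn (GRCm39 chr11:102321141-102327874, plus strand) encodes progranulin, a secreted and lysosomal protein whose loss causes frontotemporal dementia or, when complete, a ceroid lipofuscinosis. It had 1875, 1828 and 1737 CPM in NS and 2699.8, 2793 and 3085 CPM in 4LPS. The groups did not come near each other, with a log2 fold change of 0.66 (SE 0.07, adjusted p = 0.00103). Acp2, the lysosomal acid phosphatase, had 449, 437 and 439.5 CPM in NS and 513, 534 and 544 CPM in 4LPS. It rose by a log2 fold change of 0.26 (SE 0.05, adjusted p = 0.00792). Acp5, the tartrate-resistant phosphatase known from osteoclasts, had 0.69, 1.01 and 0.25 CPM in NS and 2.02, 1.56 and 2.44 CPM in 4LPS. All 4LPS samples were higher, but at this level the log2 fold change of 1.62 had an SE of 0.46 and an adjusted p of 0.0483, and the call was lost without NS replicate 1 (adjusted p = 0.13) or without 4LPS replicate 1, 2 or 3 (adjusted p = 0.104, 0.0831 and 0.143).

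Tpp1, a tripeptidyl peptidase, had 445.5, 426 and 398 CPM in NS and 489, 476 and 516 CPM in 4LPS. Its log2 fold change was 0.22 (SE 0.06, adjusted p = 0.0389), and the call was lost when any of the 6 samples was left out (adjusted p = 0.0515 to 0.114). Ppt1, the thioesterase that removes palmitate from proteins, had 251.4, 265 and 286 CPM in NS and 305, 317 and 303.5 CPM in 4LPS. Its log2 fold change was 0.21 (SE 0.06, adjusted p = 0.0407), with a call that held without NS replicate 3 and was lost without any of the other 5 samples (adjusted p of up to 0.118). Lgmn, the asparaginyl endopeptidase that also matures cathepsins and the gene with the highest FPKM of the 44, had 3995, 4472 and 4260.5 CPM in NS and 4633, 4404 and 4777 CPM in 4LPS. The groups overlapped, and its log2 fold change of 0.12 (SE 0.07) did not pass (adjusted p = 0.299).

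Of the 6 proton pump genes 1 rose (Atp6v1b2) and 0 fell, and the median log2 fold change of the 6 was 0.14. Over all genes tested 9.95% were higher, and a count from 6 genes cannot be told apart from that share. Atp6v1b2 (GRCm39 chr8:69541297-69566369, plus strand), the B subunit of the catalytic head, had 154, 168 and 168 CPM in NS and 216, 220.03 and 217.5 CPM in 4LPS. It was clearly separate, with a log2 fold change of 0.42 (SE 0.05, adjusted p = 0.00125). Atp6v1a, the A subunit that pairs with it in the head, had 116, 113 and 102 CPM in NS and 111, 107 and 114.5 CPM in 4LPS. Its groups overlapped, and the log2 fold change of 0.01 (SE 0.06, adjusted p = 0.93) was below 0 with upper-quartile factors, without a composition factor, with FPKM values, and without NS replicate 3 or 4LPS replicate 3. Atp6v0c, the proteolipid of the membrane ring and the highest of the 6 in FPKM, had 342, 303 and 279 CPM in NS and 368, 349 and 397 CPM in 4LPS. The groups were just apart at a log2 fold change of 0.27 (SE 0.08, adjusted p = 0.0601), which passed without NS replicate 1 (adjusted p = 0.0326). The annotation lists 2 processed pseudogenes of Atp6v0c, and whether they share reads with it was not tested. Atp6ap1, an accessory subunit, was separate between groups but did not pass (log2 fold change 0.16, adjusted p = 0.073). Atp6v0d1, which links the ring to the stalk, overlapped at a log2 fold change of 0.12 (adjusted p = 0.24). Atp6v1h, a subunit that regulates the head, had 52.6, 49.1 and 52.4 CPM in NS and 48.6, 43.3 and 49.6 CPM in 4LPS. The groups overlapped at a log2 fold change of -0.12 (SE 0.07, adjusted p = 0.256). Atp6v1a and Atp6v1h were the lowest of the 6 in FPKM, Atp6v1a in NS (29.2 ± 2.21 against 29.8 ± 1.36, closer than their spread) and Atp6v1h in 4LPS (25.7 ± 1.90 against 27.5 ± 0.83, SD, n = 3).

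Neither MiT/TFE factor passed the test. Tfeb (GRCm39 chr17:48047837-48103348, plus strand), the lower of the pair in FPKM, had 49.9, 57.7 and 46.5 CPM in NS and 56.8, 56.6 and 63.1 CPM in 4LPS. NS replicate 2 was above 2 of the 4LPS samples, and the log2 fold change of 0.19 (SE 0.09) had an adjusted p of 0.172 and a 95% interval of -0.01 to 0.40. Tfe3 (GRCm39 chrX:7628761-7641444, plus strand) had 223, 218 and 205 CPM in NS and 211, 212 and 222.5 CPM in 4LPS. Its groups overlapped, with a log2 fold change of -0.003 (SE 0.05, adjusted p = 0.97), a 95% interval of -0.12 to 0.11, and a sign that turned with the correction for gene length and with several samples left out. RNA levels give no measure of the location of these factors in the cell.

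**Figure D3:**
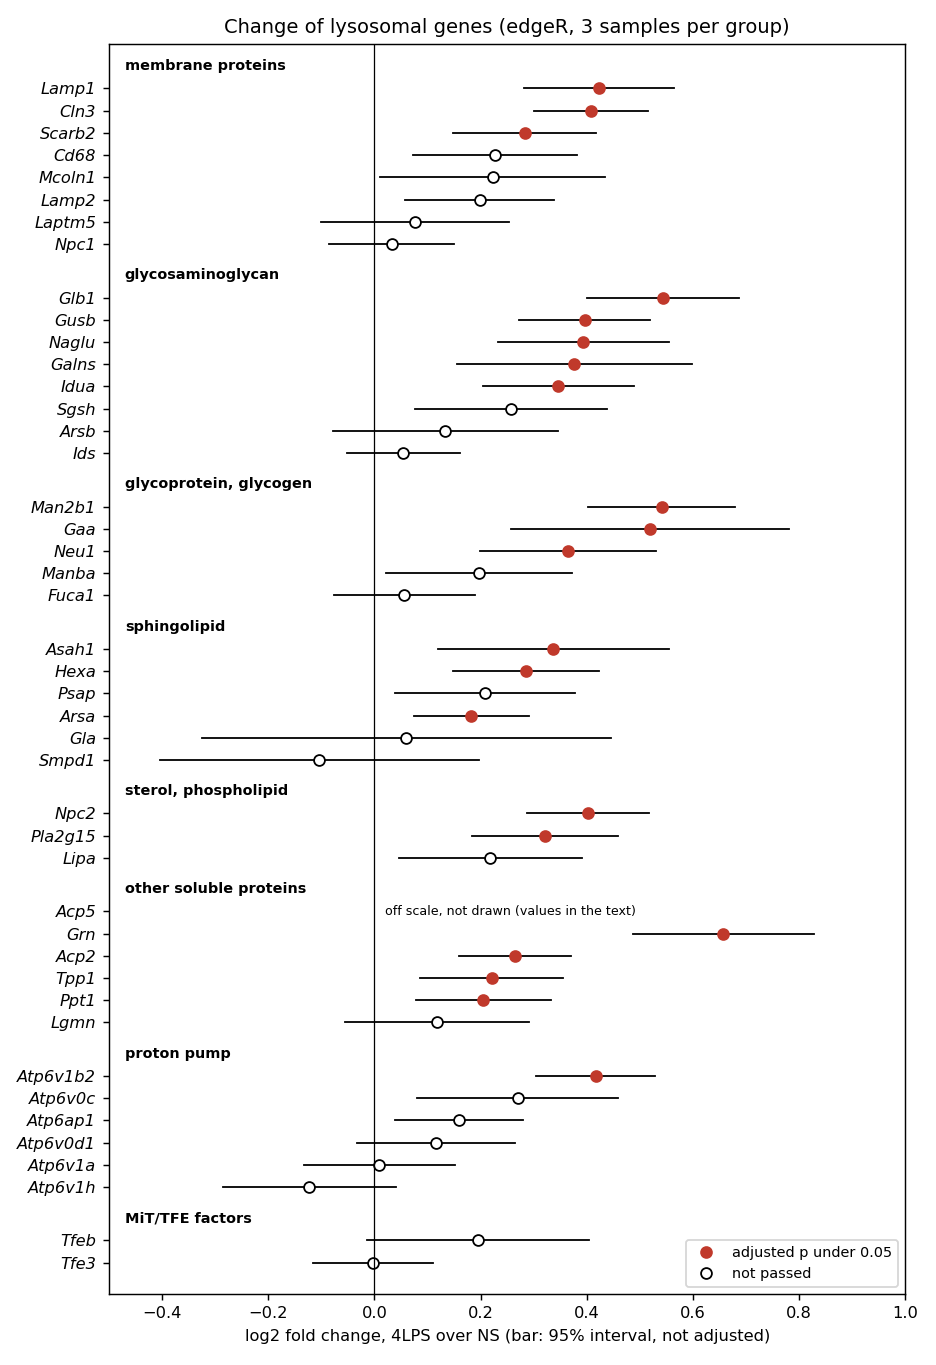
Log2 fold change of each lysosomal gene, 4LPS over NS, from edgeR with 3 samples per group; bars are unadjusted 95% intervals. Filled points have an adjusted p under 0.05 and all lie above 0, and Acp5 (1.62) is off scale.

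FPKM ratios within each sample describe 4 pairs of genes with related roles, which were chosen after their values were seen. The Lamp1 to Lamp2 ratio was 1.75, 1.81 and 1.72 in NS and 1.93, 2.06 and 2.18 in 4LPS. For the B to the A subunit of the pump head, Atp6v1b2 to Atp6v1a, it was 2.11, 2.36 and 2.62 in NS and 3.08, 3.26 and 3.03 in 4LPS. The soluble to the membrane cholesterol carrier, Npc2 to Npc1, gave 2.58, 2.53 and 2.56 in NS and 3.46, 3.09 and 3.37 in 4LPS. The Tfeb to Tfe3 ratio was 0.308, 0.366 and 0.310 in NS and 0.369, 0.370 and 0.396 in 4LPS. The 4LPS samples lay above the NS samples in each pair, though for Tfeb to Tfe3 the highest NS and the lowest 4LPS ratio nearly met. A two-sided exact permutation test of 3 against 3 samples gave p = 0.1 for each pair, also when adjusted over the 4 pairs. This is the smallest p it allows, so no ratio was shown to differ.

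Genes that overlap a neighbour are less certain, because the sources used here do not say whether reads were counted by strand. In the GRCm39 annotation 15 of the 44 genes, 10 of them among those that rose, share 11 to 2564 exon bases with a protein-coding neighbour. Some neighbours were far lower. Grtp1, which overlaps Lamp1, had 25 counts over all 6 samples, and Fam171a2, which overlaps Grn, had 1.503 CPM in NS and 0.68 CPM in 4LPS. Tmppe, on the same strand as Glb1 and sharing 194 exon bases with it, rose as well, from 48.3 to 59.3 CPM (log2 fold change 0.30, adjusted p = 0.0074). Dgkq, which shares 124 exon bases with Idua, rose by a log2 fold change of 0.33 (adjusted p = 0.0311). Cap1, which shares 203 exon bases with Ppt1, was above it, with 649 CPM in NS against 608 CPM in 4LPS, and did not pass (log2 fold change -0.09, adjusted p = 0.287). Apobr, which shares 465 exon bases with Cln3, was nearly level with it, with 72.0 CPM in NS against 74.5 CPM in 4LPS (log2 fold change 0.05, adjusted p = 0.775). Gla lay far below both of its neighbours. Rpl36a, which shares 11 exon bases with it, rose from 48.3 to 99.6 CPM (log2 fold change 1.04, adjusted p = 0.000175), and Hnrnph2, which shares 27, had 112 CPM in NS against 106 CPM in 4LPS.

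Other lysosomal genes are given by list, to be read against the 9.95% of all genes tested that were higher and the 6.43% that were lower, and differences between the lists were not tested. Of 31 other enzymes and activators 13 rose and 0 fell, with a median log2 fold change of 0.19, and those with the smallest adjusted p were Scpep1, a carboxypeptidase (0.56, adjusted p = 0.00037), Pld3, a nuclease of endolysosomes (0.62, adjusted p = 0.000767), and Man2b2, a second mannosidase (0.44, adjusted p = 0.000962). Of 30 other membrane proteins 10 rose and 1 fell, with a median of 0.13. The gene that fell was Cd164, a sialomucin, from 1250.4 ± 103 CPM to 604 ± 28.8 CPM (log2 fold change -1.05, adjusted p = 0.000113). The tetraspanin Cd63 (0.87, adjusted p = 0.000573) and the chloride transporter Clcn7 (0.43, adjusted p = 0.00121) rose. Of 13 other pump subunits tested 2 rose, Tcirg1, an a subunit of the membrane part (0.47, adjusted p = 0.00203), and Atp6v1c1, a C subunit of the stalk (0.26, adjusted p = 0.0139), and 0 fell. Of 21 genes for other MiT/TFE factors and their control at the lysosome 1 rose, Flcn, which acts on Rag GTPases (0.28, adjusted p = 0.00697), and 1 fell, the Rag GTPase gene Rraga (-0.29, adjusted p = 0.0405), shares below those of all genes. Of 9 sorting genes Nagpa (0.21, adjusted p = 0.0452) and Gnptab (0.30, adjusted p = 0.0465), which both make the mannose 6-phosphate tag, rose and 0 fell. Over these 5 lists together 28 of 104 tested genes rose and 2 fell, with a median of 0.14.

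Of the 13 cathepsins, the lysosomal proteases left out above, 10 rose and 0 fell, with a median log2 fold change of 0.53 and a summed level that rose 1.37-fold. Ctsw, a cathepsin of natural killer and cytotoxic T cells, went from 0.56 ± 0.06 CPM to 9.46 ± 0.63 CPM (adjusted p = 3.08e-05), Ctsl rose by 0.75 (adjusted p = 0.00047) and Ctsf by 0.44 (adjusted p = 0.00114) on the log2 scale. The difference in median between the cathepsins and the other lysosomal genes was not tested.

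**Figure D4:**
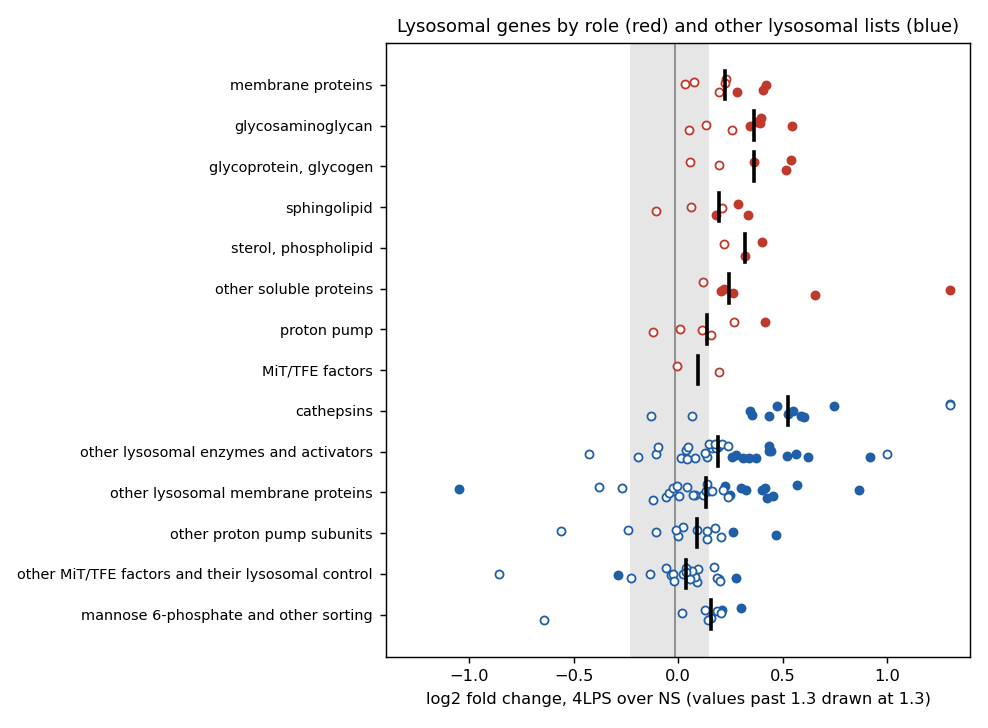
Log2 fold change of single genes, 4LPS over NS, by role for the 44 lysosomal genes (red) and for the other lysosomal lists (blue); filled points have an adjusted p under 0.05, black bars are list medians, the grey line is the median of all genes tested (-0.02) and the grey band their middle quartiles (-0.22 to 0.14). The medians run from 0.04 for MiT/TFE control genes to 0.53 for the cathepsins.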

How the data were processed

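RSEM estimated an expected count per gene, which need not be whole, and the authors deposited these with FPKM and TPM values (scaled for length and library total) and a normalized signal (rounded counts over size factors). TPM, the deposited signal and the authors' group means were not used. The authors' mapping used HISAT2 2.0.4 and Bowtie2 2.2.5, followed by RSEM 1.2.8 and DESeq2 1.16.1, with builds mm39 and mm10 in the submitters' notes. Neither the annotation nor the strand setting is given in the sources used here.

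The expected counts (2.77% of them not whole) were rounded to integers and tested in R 4.3.3 with edgeR 4.0.16, by the quasi-likelihood F-test after TMM scaling and filterByExpr, and p-values were adjusted after Benjamini and Hochberg across 13151 genes. The standard error is the size of the log2 fold change over the square root of F. The procedure was tested on simulated data. The median total was 15462166 in NS and 15208805 in 4LPS, so counting error is small for all but the lowest genes. A chi-square comparison found no library deposited more than once (mean per gene of at least 5.92 between samples of a group). The 3 samples of a group were separate pools of mice.

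The genes and lists were chosen with earlier results of these data known. All 44 genes were given a log2 fold change and adjusted p. Values in each sample were given for Lamp1, Lamp2, Cd68, Tfeb, Tfe3 and Atp6v0c, for genes that passed, and for the highest and lowest gene of each role in FPKM (2 lowest in the pump, where the groups differ). Of the other lists the 3 genes with the smallest adjusted p were named where they passed. Alternatives changed the scaling (RLE, upper-quartile or no composition factor), the filter (none, or 50 counts in 3 samples), the test (DESeq2 1.42.0, or limma-voom from limma 3.58.1), the values (limma on log2(FPKM + 1) of genes at 1 FPKM in 3 samples, the same with pseudocount 0.1, and unfiltered), the design (replicate block, a loess length correction with span 0.3, or these combined) and the samples (each left out). Gene positions are those of GRCm39 (GENCODE), matched by symbol.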

Additional observations from a re-analysis of the deposited data

How the results depend on the processing

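Over the 19 alternatives, 11 of the 22 increases passed each time (Lamp1, Cln3, Glb1, Gusb, Naglu, Man2b1, Npc2, Pla2g15, Acp2, Grn and Atp6v1b2), 13 passed in each fit that left out a sample, and none of the 22 changed sign. Of 22 genes that did not pass, 8 passed under some alternative (Lamp2, Cd68, Sgsh, Manba, Psap, Lipa, Atp6v0c and Atp6ap1) and 14 under none. Idua and Neu1 lost the call only with limma on log2(FPKM + 1) without a filter (adjusted p = 0.0526 and 0.0577). The count of lysosomal increases was 22 in the reported fit, 12 with limma on log2(FPKM + 1) without a filter, 15 to 27 with the other settings and 14 to 22 with a sample left out, and the count of decreases was 0 throughout. Of 835 alternative values of single genes, 698 kept direction and side of the threshold, 79 lost the call, 22 gained it and 36 changed sign, in 8 genes.

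Over all genes, 1308 increases and 845 decreases became 823 and 1486 with log2(FPKM + 1), 813 and 1454 with a pseudocount of 0.1, and 818 and 1335 without the filter. Decreases numbered 1711 without a composition factor, and increases 2129 with the length correction and 2379 with the block added to it. Leaving out a sample gave 781 to 1629 increases and 361 to 1215 decreases.

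Signs changed without a composition factor in Laptm5 (-0.0224), Npc1 (-0.065), Ids (-0.0436), Fuca1 (-0.0418), Gla (-0.0397) and Atp6v1a (-0.0889), all log2 fold changes. With log2(FPKM + 1), filtered or not, these genes had -0.0183, -0.0631, -0.0403, -0.0386, -0.0207 and -0.0818, and with a pseudocount of 0.1 they had -0.0183, -0.0639, -0.0411, -0.0392, -0.0249 and -0.0843. Atp6v1a was at -0.0203 with upper-quartile factors. Tfe3 was at 0.0745 with the length correction and at 0.0749 with the block as well. With a sample left out, Smpd1 ranged from -0.241 to 0.0319, Tfe3 from -0.0334 to 0.024, Gla from -0.0425 to 0.206 and Atp6v1a from -0.0409 to 0.0486. The median log2 fold change of all genes moved as well, from -0.016 to -0.114 without a composition factor and to -0.082 with filtered log2(FPKM + 1). The cause was not tested.

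Whether the replicate numbers pair the samples was not settled. Deviations from the group mean correlated at 0.473, -0.262 and 0.066 for samples with the same number. For different numbers they correlated at -0.542 to 0.468. Deviations within a group sum to 0, so these values are tied to each other and cannot exclude a pairing. With the replicate block 19 lysosomal genes were higher, with 1275 increases and 1082 decreases over all genes. Acp5 and Gla were at under 10 CPM, and the part of depth in their spread was not tested.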
